A study of Homo sapiens with 4 samples.

Results

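The RNA of 9 genes of the p53 pathway was followed in anti-V5 precipitates of the kinesin heavy chain KIF5A from SKNAS cells, an established human neuroblastoma line. The genes were MDM2, MDM4, CDKN1A, ZNF385A, PIDD1, TP53I3, TP53INP1, PPM1D and SESN1, and they are 9 of 60675 genes in the count tables. The set was chosen by gene name with the d27 against WT values of these same libraries in view. The differences of these genes are therefore given as descriptions, with no test of their own. Where a call from the test across all genes is named for them, it is no independent result. The d27 group held 2 precipitates of cells transfected with a V5-d27 KIF5A construct, and the WT group held 2 precipitates of cells transfected with a V5-WT KIF5A construct. RNA was taken 24 hours after transfection in both groups. All cells were of the same line and carried a transiently expressed tagged construct, and no label states that the cells' own KIF5A was removed. No input or mock precipitate was used here. A difference between d27 and WT in these bulk cultures therefore cannot be told apart as more RNA per cell, more cells with the RNA, or more of the RNA held by KIF5A.

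The transcription factor p53 switches on genes that stop the cell cycle, start apoptosis, repair DNA or adjust metabolism after stress. MDM2 is a ubiquitin ligase that marks p53 for destruction, and its relative MDM4 binds and silences p53. MDM2 is itself a p53 target, which closes a feedback loop.

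The depth differed between libraries. Gene counts totalled 18335151 and 10483082 in d27 replicates 1 and 2, and 8142869 and 10811134 in WT replicates 1 and 2. The test across genes called 1192 of 14909 genes higher in d27 and 551 lower, with an edgeR adjusted p under 0.05. Of 11 mesenchymal neuroblastoma markers, all had at least 10 counts in every library, as did 8 of 11 adrenergic ones. TH and DBH, which encode enzymes of noradrenaline synthesis, had at most 13 counts in any library. The markers of Schwann or glial cells summed to 3.81 and 4.83 CPM in d27 and 4.44 and 3.12 CPM in WT, and those of epithelia to at most 0.651 CPM in any library. Among 5 blood markers, PTPRC had 858 to 1852 counts in d27 and 1561 to 1670 in WT, and the others had at most 1 count. Summed marker levels were 1134 to 1471 CPM in d27 and 1366 to 1438 CPM in WT for the adrenergic list, and 4822 to 5371 CPM in d27 and 3811 to 4065 CPM in WT for the mesenchymal list. FOSL1 alone gave 1917 and 1749 CPM of the mesenchymal sum in d27, against 166 and 143 CPM in WT, and without it the list summed to 3454 and 3073 CPM in d27 and 3644 and 3923 CPM in WT, so that the direction turned. Among single markers, FOSL1 rose (log2 fold change 3.57, edgeR adjusted p = 0.00384) and PTPRC fell (-0.96, edgeR adjusted p = 0.0433). Their part in the results below was not tested. The labels number the precipitates of a group without tying them to separate cultures, so a p-value reflects library-to-library spread that could be technical.

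Promoter sequence was not used to choose the genes, and a pair of windows is shown because they hold the closest matches to a p53 binding site among the set. The RefSeq table (GRCh38.p14) gave 12 start-site windows of 300 bases for 7 of the 9 genes, and none for ZNF385A and TP53INP1. The consensus p53 site has a repeated element and is bound by p53 as a tetramer. The planned search allowed no mismatch, for a single element (RRRCWWGYYY) and for a pair with a spacer of 0 to 13 bases. A single element was in 1 of the 12 windows, a SESN1 window, and in 6.63% of all windows. No window of the set held a pair, which 0.0285% of all windows did. The site was then searched on both strands without a spacer and with up to 3 mismatches, a limit chosen after the sequences were seen. Capitals mark the matches.

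MDM2, inner start site, chr12:68808767-68809066, plus strand: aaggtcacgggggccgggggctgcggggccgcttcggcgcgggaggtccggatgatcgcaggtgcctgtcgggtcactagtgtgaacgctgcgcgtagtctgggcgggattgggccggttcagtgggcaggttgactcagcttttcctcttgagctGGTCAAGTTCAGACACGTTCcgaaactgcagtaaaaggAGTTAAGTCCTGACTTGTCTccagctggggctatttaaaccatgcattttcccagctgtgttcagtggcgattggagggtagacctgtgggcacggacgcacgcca
SESN1, inner start site, chr6:109008939-109009238, minus strand: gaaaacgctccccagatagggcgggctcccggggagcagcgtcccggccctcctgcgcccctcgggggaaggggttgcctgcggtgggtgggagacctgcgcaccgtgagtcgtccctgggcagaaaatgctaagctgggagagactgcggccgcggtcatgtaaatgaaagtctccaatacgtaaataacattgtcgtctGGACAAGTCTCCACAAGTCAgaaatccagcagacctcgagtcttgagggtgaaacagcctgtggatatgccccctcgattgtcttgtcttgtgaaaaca

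The MDM2 window lay inside the gene, and both of its matches fell in intronic sequence of the GENCODE 29 annotation, 94 and 56 bases before the start site, with 2 and 3 mismatches. It is the inner promoter of MDM2, which is known to answer to p53. A second MDM2 window shifted by a few bases held the same pair of matches, and the windows at the outer start held none. The SESN1 match, also intronic, began 49 bases before its start site and had 3 mismatches. Of all 35114 promoter windows, 5.20% held such a match. No window of MDM4, CDKN1A, PIDD1, TP53I3 or PPM1D held one, which says only that these letters are not in 300 bases: CDKN1A, for example, is known to have p53 sites farther upstream. The cAMP response element TGACGTCA, in 1.85% of all windows, was found in the PPM1D window. The AP-1 site TGANTCA, in 7.71% of all windows, was found in the inner MDM2 windows, and the serum response (CArG) motif, in 1.29% of all windows, in no window of the set. Of the genes with a match, MDM2 had libraries that did not overlap between d27 and WT, and SESN1 had libraries that did, as given with their values.

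The largest fold difference in the set was in ZNF385A, a zinc finger protein that binds p53 and steers it towards genes of cell cycle arrest, and whose mouse counterpart binds mRNA and carries it into dendrites. ZNF385A (ENSG00000161642.18, GRCh38 chromosome 12, 54369133 to 54391298, minus strand) had 3472 and 2177 counts in d27 and 248 and 202 in WT. As CPM, the count relative to the library total after TMM scaling between libraries, ZNF385A had 189 and 202 CPM in d27, against 28.2 and 21.0 CPM in WT. The groups lay far apart, since the lowest d27 library was 6.69 times the highest WT library. The log2 fold change of d27 over WT was 2.99 ± 0.27 (SE, n = 2 each), a 7.95-fold difference. It ran from 2.76 with an offset for GC content and exon length to 3.26 without WT replicate 1 over 11 alternatives. Its relatives ZNF385B, ZNF385C and ZNF385D had at most 6 counts in any library and did not pass the filter on low counts. The only genes annotated over ZNF385A, entries of the antisense RNA GPR84-AS1, shared no exonic base with it and had no counts.

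CDKN1A, which encodes the cyclin-dependent kinase inhibitor p21, was also several-fold higher in d27. CDKN1A (ENSG00000124762.14, chromosome 6, 36676460 to 36687339, plus strand) had 1001 and 599 counts in d27 and 124 and 76 in WT, or 54.5 and 55.7 CPM in d27, against 14.1 and 7.90 CPM in WT. The d27 libraries agreed closely while the WT libraries differed 1.79-fold, and the groups did not overlap. The log2 fold change was 2.32 ± 0.34 (SE, n = 2 each), and 2.84 without WT replicate 1 or 1.99 without WT replicate 2. The overlapping antisense RNA DINOL, a p53-induced lncRNA from the same promoter region, had 0 counts in all 4 libraries.

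MDM2 and MDM4, the paired inhibitors of p53, were both higher in d27, by 1.94-fold and 1.83-fold in the fit to all 4 libraries. MDM2 (ENSG00000135679.25, chromosome 12, 68808176 to 68850686, plus strand) had 158 and 99.3 CPM in d27 and 76.8 and 56.2 CPM in WT. MDM4 (ENSG00000198625.13, chromosome 1, 204516379 to 204558120, plus strand) had 210 and 151 CPM in d27 and 126 and 71.8 CPM in WT. In both genes every d27 library lay above every WT library, but narrowly: the lowest d27 value was 1.29 times the highest WT value for MDM2 and 1.20 times for MDM4. The log2 fold change was 0.95 ± 0.30 for MDM2 and 0.87 ± 0.32 for MDM4 (SE, n = 2 each). The spread within groups was of similar size, with replicate 1 at 1.59 times replicate 2 in d27 and 1.37 times in WT for MDM2, and at 1.39 and 1.75 times for MDM4. The carboxypeptidase M gene on the other strand shares 133 exonic bases with MDM2, 1.00% of the exonic bases of MDM2, and had 28 and 6 counts in d27 and 12 and 50 in WT. The MDM2 value ran from 0.59 without d27 replicate 1 to 1.28 without d27 replicate 2 over the alternatives, and was 1.21 with the offset for GC content and exon length. The MDM4 value ran from 0.55 without WT replicate 2 to 1.37 without WT replicate 1.

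PPM1D, a phosphatase that shuts down the damage signal to p53 and is a p53 target itself, did not separate the groups. It had 19.5 and 23.2 CPM in d27 and 16.3 and 24.4 CPM in WT (log2 fold change 0.07 ± 0.32 SE, n = 2 each). Both d27 values fell between the WT values. Of the negative regulators in the set, MDM2 and MDM4 were higher in both d27 libraries, as were 31.4% of all tested genes, and PPM1D was not separated. Neither MDM2 nor MDM4 was called in the test across all genes. The sign of the PPM1D value changed under 3 of 11 alternatives, from -0.15 without WT replicate 1 to 0.41 without WT replicate 2.

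PIDD1 was the only gene of the set with a lower level in both d27 libraries than in both WT libraries. Its protein is the scaffold of the PIDDosome, where the adaptor CRADD joins it to the protease caspase-2, encoded by CASP2. PIDD1 (ENSG00000177595.18, chromosome 11, 799179 to 809753, minus strand) had 159 and 76 counts in d27 and 194 and 360 in WT, or 8.65 and 7.07 CPM in d27, against 22.1 and 37.4 CPM in WT. The highest d27 library was at 0.392 times the lowest WT library. The log2 fold change was -1.92 ± 0.36 (SE, n = 2 each), and -1.46 without WT replicate 2, the library with the most PIDD1.

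PIDD1 overlaps RPLP2, which encodes an acidic protein of the ribosomal stalk, on the other strand. The GENCODE 29 exons of the 2 genes share 107 bases, 1.82% of the exonic bases of PIDD1. RPLP2 had 214 and 267 CPM in d27 and 676 and 660 CPM in WT, and fell, with a log2 fold change of -1.48 ± 0.26 (SE, n = 2 each; edgeR adjusted p = 0.0169). That call was lost without d27 replicate 1 (edgeR adjusted p = 0.0822). The strand setting of the counting is not given in the sources used here, and the part of RPLP2 reads in the PIDD1 counts was not tested. Neither partner of PIDD1 passed the test across all genes. CASP2 had 88.0 and 62.4 CPM in d27 and 51.1 and 26.2 CPM in WT, with a log2 fold change of 0.96 ± 0.36 (SE; edgeR adjusted p = 0.118), which passed without WT replicate 1 (1.57, edgeR adjusted p = 0.0015), without d27 replicate 2 (1.22, 0.0307), with the replicate block (1.01, 0.0111), with no filter (1.03, 0.0122) and in DESeq2 (0.98, adjusted p = 0.0446). CRADD had 100 and 47 counts in d27 and 31 and 53 in WT, and its groups overlapped (log2 fold change 0.12 ± 0.51 SE).

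**Figure D1:**
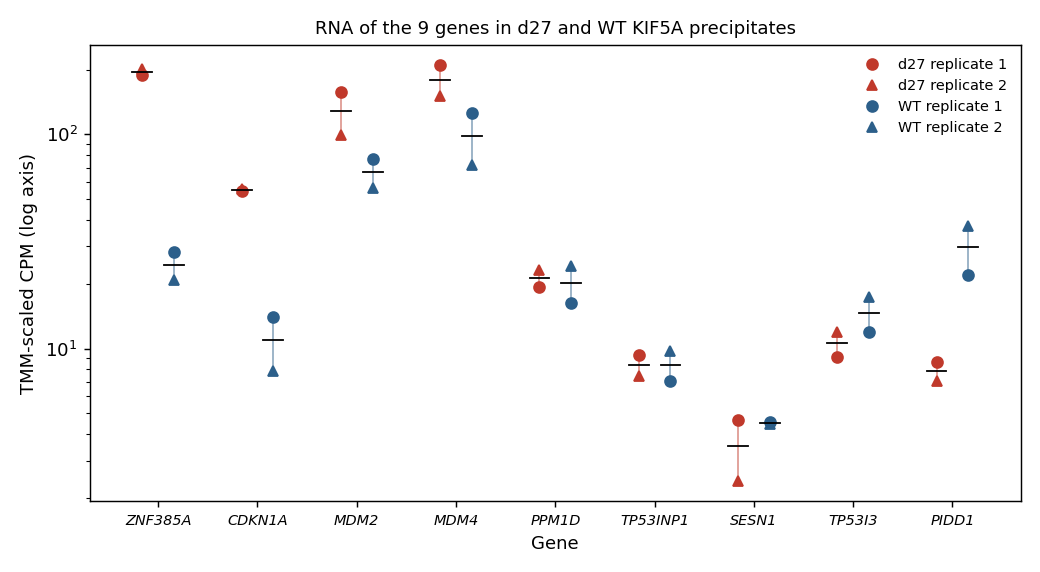
TMM-scaled CPM (log axis) of the 9 genes, with d27 in red on the left and WT in blue on the right of each gene. Circles are replicate 1, triangles replicate 2, black bars group means. ZNF385A, CDKN1A, MDM2 and MDM4 lay higher in both d27 libraries, PIDD1 lay lower, and the other 4 genes overlapped.

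The remaining targets in the set did not separate the groups. TP53I3, a quinone oxidoreductase linked to p53-induced oxidative stress, had 9.14 and 12.0 CPM in d27 and 11.9 and 17.5 CPM in WT (log2 fold change -0.48 ± 0.36 SE, n = 2 each). Its 80 exonic bases shared with FAM228B on the other strand are 3.46% of its exonic bases, and FAM228B had 66 and 61 counts in d27 and 20 and 159 in WT. The 12.0 CPM of d27 replicate 2 stood just above the 11.9 CPM of WT replicate 1, so the groups overlapped. TP53INP1, a stress-induced p53 cofactor that also acts in autophagy, had 9.36 and 7.44 CPM in d27 and 7.06 and 9.77 CPM in WT, with group means closer than their spread (8.40 ± 1.36 and 8.41 ± 1.92 CPM, SD, n = 2 each). SESN1, a sestrin that restrains the growth kinase mTORC1, had 85 and 26 counts in d27 and 40 and 43 in WT, or 4.63 and 2.42 CPM in d27, against 4.55 and 4.47 CPM in WT. SESN1 had the fewest counts of the set, and its value changed from -0.88 without d27 replicate 1 to 0.07 without d27 replicate 2. SESN2, a stress-induced sestrin that is also a p53 target, rose to 108 ± 31 CPM in d27, against 20.7 ± 5.2 CPM in WT, with a log2 fold change of 2.38 ± 0.32 (SE, n = 2 each; edgeR adjusted p = 0.00904). The third sestrin gene, SESN3, was not called (-0.38 ± 0.37 SE, edgeR adjusted p = 0.529). TP53INP2, the autophagy-related relative of TP53INP1, rose (log2 fold change 1.13 ± 0.26 SE, edgeR adjusted p = 0.0353), a call that was lost without d27 replicate 1 (adjusted p = 0.108), without d27 replicate 2 (0.114) and without WT replicate 2 (0.0504).

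In all, both d27 libraries stood above both WT libraries for 4 of the 9 genes, as they did for 31.4% of the 14909 genes tested, and below for 1 of 9, as they did for 29.8%. In the test across all genes ZNF385A and CDKN1A were called higher and PIDD1 lower, against 8.00% of all tested genes called higher and 3.70% lower. These counts rest on the values that chose the set. All 9 genes passed the filter on low counts.

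**Figure D2:**
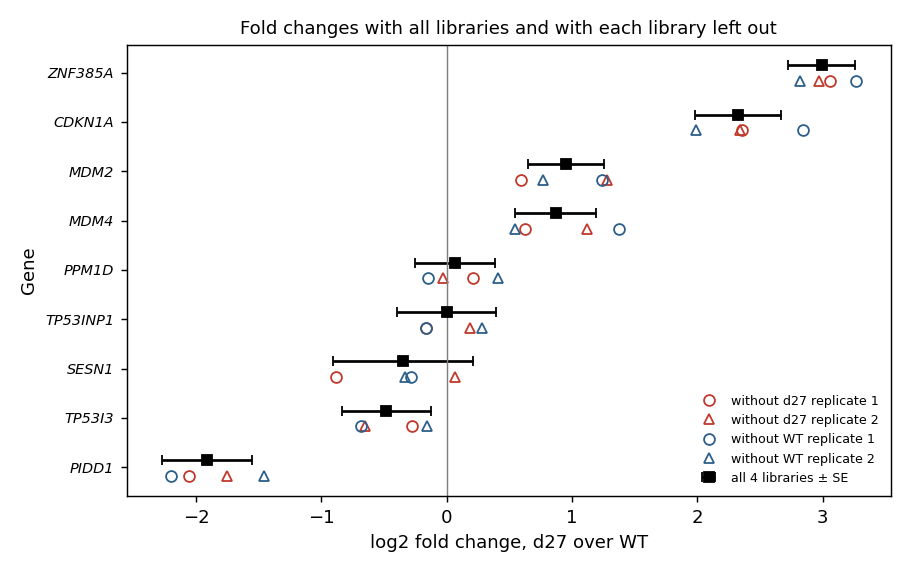
Log2 fold change of d27 over WT for the 9 genes. Black squares with bars are the edgeR fit to all 4 libraries ± SE, and open symbols are fits that leave out 1 library (red for d27, blue for WT; circles for replicate 1, triangles for replicate 2). ZNF385A, CDKN1A, MDM2 and MDM4 lay above 0 and PIDD1 below 0 in all of these fits.

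Levels can be compared between genes per exon length, as TPM, which sums to the same total in every library. In both d27 libraries ZNF385A had the highest TPM of the set, at 272 and 246, followed by CDKN1A and MDM4, at 81.9 and 70.7 TPM for CDKN1A and 87.5 and 52.99 TPM for MDM4, which did not differ beyond their spread. MDM2, at 54.5 and 28.9 TPM, lay below MDM4 in each d27 library, though their ranges overlapped. TP53I3 (18.1 and 20.1 TPM) and PPM1D (17.7 and 17.8 TPM) followed in d27. Below them came TP53INP1 (7.56 and 5.07 TPM) and PIDD1 (6.76 and 4.66 TPM). The ranges of these last genes overlapped, with TP53INP1 higher in each d27 library. In WT the top of the order was flatter. MDM4 (40.3 and 23.9 TPM), ZNF385A (31.3 and 24.2 TPM) and TP53I3 (18.2 and 27.6 TPM) overlapped with each other. The range of PIDD1, at 13.3 and 23.3 TPM, overlapped with those of TP53I3, MDM2, PPM1D and CDKN1A. In each WT library PIDD1 lay below TP53I3 and above PPM1D. SESN1 was lowest in every library, between 1.83 and 4.14 TPM. ZNF385A lay at the 96th percentile of tested genes by TPM in both d27 libraries (96.5 and 96.3), against 70.9 and 63.1 in WT. PIDD1 lay at the percentiles 28.3 and 23.4 in d27, against 48.2 and 62.2 in WT.

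**Figure D3:**
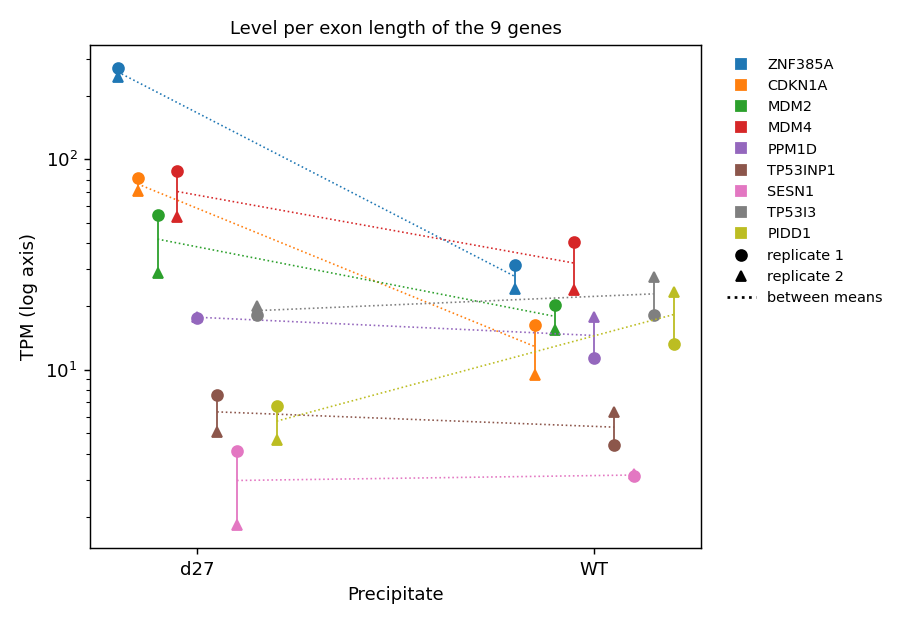
TPM (log axis) of the 9 genes in d27, on the left, and WT, on the right. Circles are replicate 1, triangles replicate 2, and dotted lines join the group means. ZNF385A was at 272 and 246 TPM in d27 and at 31.3 and 24.2 TPM in WT, and PIDD1 was at 6.76 and 4.66 TPM in d27 and at 13.3 and 23.3 TPM in WT.

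The 9 genes differ in transcript structure, which the choice of the set did not use. GC content was 63.2% for ZNF385A, 58.1% for CDKN1A and 66.0% for PIDD1, and 41.9% for MDM2 and 42.4% for MDM4, beside a median of 48.2% over tested genes. Among the genes whose groups overlapped it was 58.4% for TP53I3, 45.1% for PPM1D, 43.4% for SESN1 and 39.6% for TP53INP1. The transcript with the longest coding sequence had a 3' untranslated region of 10837 bases in MDM2 and 8438 in MDM4, against 123 bases in PIDD1 and 146 in TP53I3, with a median of 1059 bases over 12232 tested genes. The AU-rich pentamer ATTTA, a mark of short-lived mRNAs, occurred 32 times in that region of MDM2, 19 in MDM4 and 3 in CDKN1A, and was absent from those of ZNF385A, PIDD1 and TP53I3. At least 1 occurred in 68.9% of tested genes. The longer TATTTAT, which overlaps the pentamer, occurred in 32.3% of tested genes. It was found in MDM2 (2 times) and MDM4 (1), which were higher in both d27 libraries, and as often in TP53INP1 and PPM1D (2 times each), whose groups overlapped, and in none of the other 5 genes. TP53INP1 also held 14 of the pentamers and PPM1D held 5. A site of each is shown, since these share the longest untranslated regions of the set. Capitals mark the motif.

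MDM2, base 2376 of the 3' untranslated region: atgccaagctaTATTTATaatgaacaaat
MDM4, base 3952 of the 3' untranslated region: tgtcaaattaaTATTTATgattgttatct

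Genes with the most similar profile over the 4 libraries were found by the Euclidean distance between centred log2 CPM values, among 9198 genes with a mean of at least 10 CPM. PCGF2, a Polycomb subunit, lay closest to ZNF385A (distance 0.14), followed by LITAF (0.24) and SORBS3 (0.27). PCGF2 had 342 and 380 CPM in d27 and 48.5 and 34.7 CPM in WT. The mitotic kinesin KIF15 (0.25), the metalloprotease ADAMTS1 (0.30) and the ribosomal stalk protein RPLP0 (0.31) lay closest to PIDD1. KIF15 had 10.6 and 10.1 CPM in d27 and 25.1 and 49.8 CPM in WT. With 4 libraries, such a distance describes these libraries and no more.

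Outside the 9 genes, p53 pathway genes passed the test in both directions. TP63 and TP73 of the p53 family had at most 6 counts in any library. Of 160 other pathway genes on the lists, 134 passed the filter on low counts; 20 rose, 7 fell and 107 did not pass. The lists, like the 9 genes, were chosen with earlier results of these data known, so their shares are a description and no independent result. Of those 134 genes, 14.9% were higher and 5.22% lower, beside 8.00% and 3.70% of all genes tested. The median log2 fold change of the 134 was 0.16, beside -0.00043 over all genes tested. The pathway median was 0.26 without WT replicate 2, 0.25 without WT replicate 1 and 0.10 with the offset for GC content and exon length. It was 0.35 in DESeq2 and 0.40 with no filter, fits that also took in pathway genes below the filter on low counts. The median over all genes was not computed for these alternatives. Without d27 replicate 1 the counts became 12 higher and 0 lower, without WT replicate 1 they became 34 and 15, and the lower calls became 4 without WT replicate 2 or without d27 replicate 2. With the replicate block they were 34 and 13.

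Among targets that act in apoptosis, 4 of 17 tested rose and none fell, with a list median of 0.62 on the log2 scale. PMAIP1, the BH3-only protein NOXA, reached 65.5 ± 4.7 CPM in d27, against 22.2 ± 3.3 CPM in WT (log2 fold change 1.56 ± 0.26 SE, edgeR adjusted p = 0.0154). CDIP1, a pro-apoptotic membrane protein, reached 57.1 ± 5.1 CPM, against 18.9 ± 6.3 CPM in WT (1.59 ± 0.31, edgeR adjusted p = 0.0228). The other 2, named after their values were seen, were the pore former BAX (1.54 ± 0.36) and the exonuclease AEN (1.24 ± 0.31). The BAX call was lost without d27 replicate 2 (edgeR adjusted p = 0.113), and the AEN call without that library (0.0824) or WT replicate 2 (0.09). BBC3, the BH3-only protein PUMA, had 69 and 65 counts in d27 and 20 and 21 in WT and did not pass.

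Among targets in metabolism, redox control and autophagy, SESN2, TIGAR and PRKAB1 rose, and 13 of 16 tested did not pass. TIGAR, which lowers glycolytic flux, had 213 and 117 counts in d27 and 23 and 23 in WT (log2 fold change 2.16 ± 0.43 SE, edgeR adjusted p = 0.0227), a call lost without d27 replicate 1 (0.132). PRKAB1, a regulatory subunit of the energy sensor AMPK, reached 109 ± 2 CPM in d27, against 45.4 ± 9.3 CPM in WT (1.26 ± 0.25, edgeR adjusted p = 0.0239), a call lost without WT replicate 2 (0.0536).

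None of 8 tested cell cycle targets passed, including GADD45A, at 67.2 ± 3.0 CPM in d27 and 57.6 ± 11.7 CPM in WT. The median log2 fold change of those 8 was 0.30. Of 8 DNA repair targets, the helicase gene ASCC3 fell (log2 fold change -1.05 ± 0.23 SE, edgeR adjusted p = 0.03) and the other 7 were not called, with a list median of -0.63. The ASCC3 call was lost without d27 replicate 1 (adjusted p = 0.14), without d27 replicate 2 (0.063) and without WT replicate 2 (0.0649).

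Among p53 targets of other function, 10 of 53 tested rose and 4 fell. ATF3, a stress-induced transcription factor, showed the largest change, to 229 ± 20 CPM in d27, against 12.2 ± 2.8 CPM in WT (log2 fold change 4.22 ± 0.29 SE, edgeR adjusted p = 0.00226). The lipase gene ABHD4 rose (2.37 ± 0.33, edgeR adjusted p = 0.00991), as did RRAD, a Ras-like GTPase with 189 and 112 counts in d27 and 14 and 13 in WT (2.81 ± 0.47, 0.0152). The decapping factor DCP1B (1.66 ± 0.30, edgeR adjusted p = 0.0185) and PML, which builds nuclear bodies (1.34 ± 0.25, 0.0201), also rose. The RRAD call was lost without d27 replicate 1 (edgeR adjusted p = 0.0532). ASTN2, a neuronal adhesion protein (-1.80 ± 0.37), the matrix proteoglycan VCAN (-1.24 ± 0.26), the NAD synthetase NADSYN1 (-1.11 ± 0.25) and the semaphorin receptor PLXNB2 (-1.36 ± 0.34) fell, with edgeR adjusted p of 0.0258, 0.0265, 0.0328 and 0.0416 in that order. Those 4 calls were lost without d27 replicate 1 (edgeR adjusted p = 0.0647, 0.166, 0.184 and 0.119), those of VCAN and NADSYN1 also without d27 replicate 2 (0.0714 and 0.092), that of NADSYN1 also with the offset for GC content and exon length (0.108), and that of PLXNB2 also without WT replicate 2 (0.107).

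Of 28 tested genes on the list of p53 family members and regulators, 2 rose and 2 fell. The kinase ATM, which signals DNA breaks to p53, fell to 33.1 ± 2.2 CPM in d27, against 66.7 ± 6.3 CPM in WT (log2 fold change -1.01 ± 0.25 SE, edgeR adjusted p = 0.0398). TP53BP1, a chromatin reader at DNA breaks, fell to 163 ± 6 CPM, against 344 ± 78 CPM in WT (-1.08 ± 0.26, edgeR adjusted p = 0.0371). With the offset for GC content and exon length neither passed (adjusted p = 0.118 and 0.0662), nor did they without d27 replicate 1 (0.154 and 0.119) or d27 replicate 2 (0.157 and 0.0939), nor TP53BP1 without WT replicate 2 (0.119). TP53BP1 shares 28.7% of its exonic bases with TUBGCP4 on the other strand. The genes that rose, named after their values were seen, were RCHY1 (1.46 ± 0.31), a ubiquitin ligase for p53, and STRAP (1.38 ± 0.30), a protein of TGF-beta receptor signalling. STRAP was counted because it is on the list, and a role of it in p53 regulation was not tested. The RCHY1 call was lost without d27 replicate 1 (edgeR adjusted p = 0.0521) and the STRAP call without WT replicate 2 (0.0593).

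**Figure D4:**
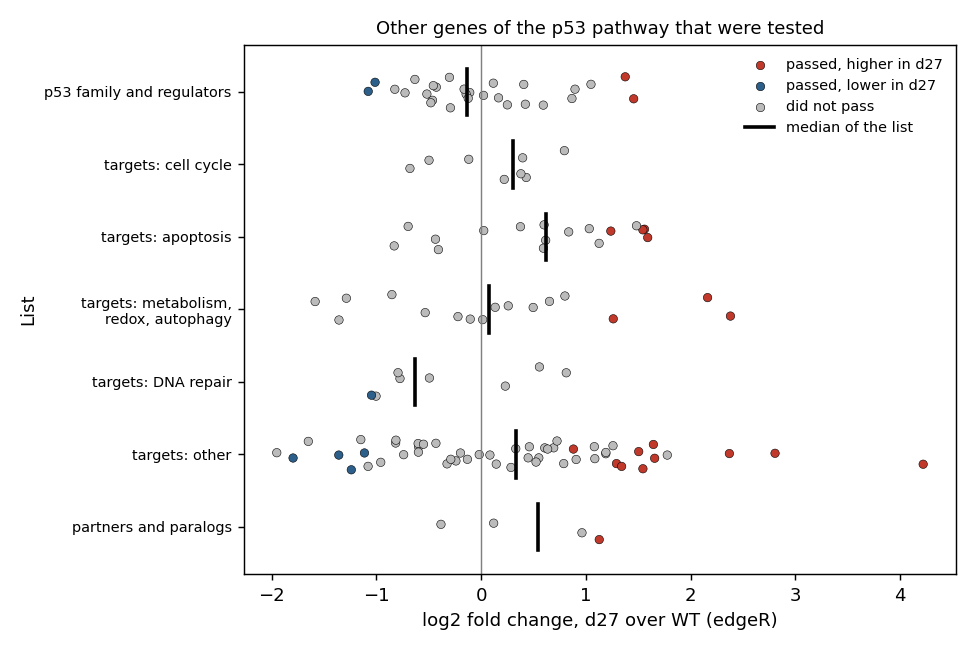
Log2 fold change of d27 over WT for 134 other p53 pathway genes that passed the filter, by list. Red points passed the edgeR test higher in d27, blue points lower, grey points did not pass, and black bars are list medians. The 20 red points include ATF3 at 4.22, RRAD at 2.81 and SESN2 at 2.38, and the 7 blue points include ASTN2 at -1.80.

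Of the 20 other pathway genes that rose, 7 were called with each library left out in turn: ATF3, SESN2, ABHD4, PMAIP1, DCP1B, PML and CDIP1. Of the 7 that fell, none was.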

How the data were processed

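RNA from 2 d27 and 2 WT anti-V5 precipitates was depleted of ribosomal RNA and sequenced with a strand-marking kit, per the labels' protocols. Each deposited file holds the authors' unnormalized count of reads per Ensembl gene; the submitters' processing notes name HTSeq, DESeq2 and GRCh38. The sources used here give no aligner, annotation release, strand setting or tool version. Reads that HTSeq gave to no single gene (no feature, ambiguous or not uniquely aligned), which made up 25.9% and 36.8% of all entries, gene counts included, in d27 and 47.6% and 47.3% in WT, were left out.

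Symbols came from a gene name table, and positions, exon lengths and GC content from GENCODE release 29, matched by ID without version. The tables list 60719 entries, of which 44 second copies on the Y chromosome, with 0 counts, were set aside. The test was edgeR 4.0.16 in R 4.3.3, with TMM, filterByExpr (minimum count 10, total 15), robust glmQLFit and glmQLFTest on group, with Benjamini-Hochberg adjustment over 14909 genes and a threshold of 0.05; it was tested on simulated data. SE is the log2 fold change over the square root of F. TPM used exon-union lengths. Alternatives were DESeq2 1.42.0, its size factors, library totals, 2 filters, an offset for GC and length, a replicate block and each library left out. A count of 0 allows 3 counts, which is 0.164 to 0.368 CPM, for counting error only.

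The 9 genes and the lists were chosen with earlier results of these data known. Other pathway genes were named by lowest p, up to 10 a direction with at least 50 counts in all, and exceptions are marked. Some genes named by these rules or lists are not reported here.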

Additional observations from a re-analysis of the deposited data

How the results depend on the processing

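The log2 fold changes of ZNF385A, CDKN1A, MDM2 and MDM4 stayed above 0 and that of PIDD1 below 0 under all 11 alternatives, while those of TP53INP1, PPM1D and SESN1 changed sign under 6, 3 and 1 of them; SESN1 and CRADD did not pass the 50-count filter. Counts over all genes (1192 higher, 551 lower) became 2137 and 1438 with the replicate block, 1888 and 974 with no filter; the lower count became 285 with library totals, 1008 with at least 50 counts in both libraries of a group, 993 with the GC and length offset and 1118 in DESeq2. With 1 library left out they ran from 697 to 2715 higher and from 71 to 2136 lower. Counts of other pathway genes (20 higher, 7 lower) became 34 and 13 with the replicate block; the lower count became 4 with library totals and 11 with the 50-count filter or DESeq2, and with 1 library left out they ran from 12 to 34 and from 0 to 15. CRADD turned to -0.12 with the GC and length offset, and ran from -0.12 without WT replicate 1 to 0.50 without WT replicate 2. The causes were not tested. Differences of replicates 1 and 2 correlated weakly between d27 and WT (r = 0.0962 over tested genes), and no label says that a number marks a shared culture, so the block is no main result. With library totals, ASCC3, NADSYN1, ATM, TP53INP2, STRAP, BAX, SERTAD1, CSF1 and AEN did not pass.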
